A study of Saccharomyces cerevisiae with 18 samples.

Results

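The 10 genes described here encode some of the enzymes, and 1 of the electron carriers, with which Saccharomyces cerevisiae removes superoxide and peroxides. They are the cytosolic catalase CTT1, the glutathione peroxidase homologues GPX1 and GPX2, the peroxiredoxins TSA1, TSA2, AHP1 and PRX1, the superoxide dismutases SOD1 and SOD2, and the cytosolic thioredoxin TRX2. They were taken by gene name out of 5449 genes with a named probe set on the array. Each was read by 1 probe set, and all 10 exceeded the background limit in every one of the 18 arrays.

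The series holds 18 arrays of total RNA, 2 for each of 9 groups, from 3 strains that the labels call ethanol tolerant: a diploid and 2 haploids, one of them labelled alpha and the other labelled a. No strain name, genotype beyond ploidy and mating type, or less tolerant strain is given. Each strain grew in a fermentor on rich medium with 100 g/L glucose from a starting OD600 of 0.5, with 0%, 3% or 7% ethanol (v/v) added, and was harvested in mid-exponential growth. The labels do not say whether the 2 arrays of a group came from separate cultures, so each p-value measures the spread between 2 arrays, which may be technical. The arrays read RNA from whole cultures, in which less RNA in every cell and fewer cells with the RNA cannot be told apart.

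Superoxide leaks mainly from the respiratory chain, and superoxide dismutases turn it into hydrogen peroxide. Catalase splits hydrogen peroxide without a reductant, while peroxiredoxins and glutathione peroxidases reduce it and organic peroxides with electrons that reach them through thioredoxin, glutaredoxin or glutathione and come in the end from NADPH. In yeast many of these genes are switched on by the peroxide-responsive factors Yap1 and Skn7 and by the general stress factors Msn2 and Msn4, and CTT1 is a widely used reporter of the latter pair. Ethanol is both a membrane stress and, for cells short of glucose, a respiratory carbon source.

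The strain labels were checked against mating-type genes. The 4 alpha-specific genes had strain mean signals of 1763 to 4391 in the haploid labelled alpha and 991 to 4665 in the haploid labelled a, against 7.69 to 95.04 in the diploid. The 7 a-specific genes stayed at 5.21 to 25.4, 7.33 to 30.8 and 4.49 to 27.5 in the same order. The markers of the haploid labelled a thus go against its mating type, and its label is kept only as a name. The 6 haploid-specific genes read 78.8 to 756 and 103 to 660 in the haploids and 4.98 to 47.8 in the diploid. The background limit of an array lay between 4.60 and 7.58 in scaled signal. The 18S rRNA control ranged from 148 to 1844, and its 4 lowest arrays were 1 of each haploid group at 3% and 7% ethanol; it was tried as a covariate. Within groups, log2 signals had an SD of 0.12 to 0.16 between arrays over the genes tested.

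Signals below are scaled signals, the deposited intensities multiplied so that all arrays share 1 trimmed mean, and differences and folds are of log2(scaled signal + 16), which understates the change of dim genes. A probe set's brightness depends on its sequence, so levels are compared between samples and not between genes. A gene was called higher or lower when the adjusted p of limma's moderated test, taken over 5363 genes, was under 0.05. The bright end of the scale holds TSA1, AHP1, SOD1 and TRX2, which lie above 92.3% or more of the genes tested, and the brightest probe set of an array read 5463 to 6636. Whether differences between such bright signals are compressed was not tested.

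**Figure D1:**
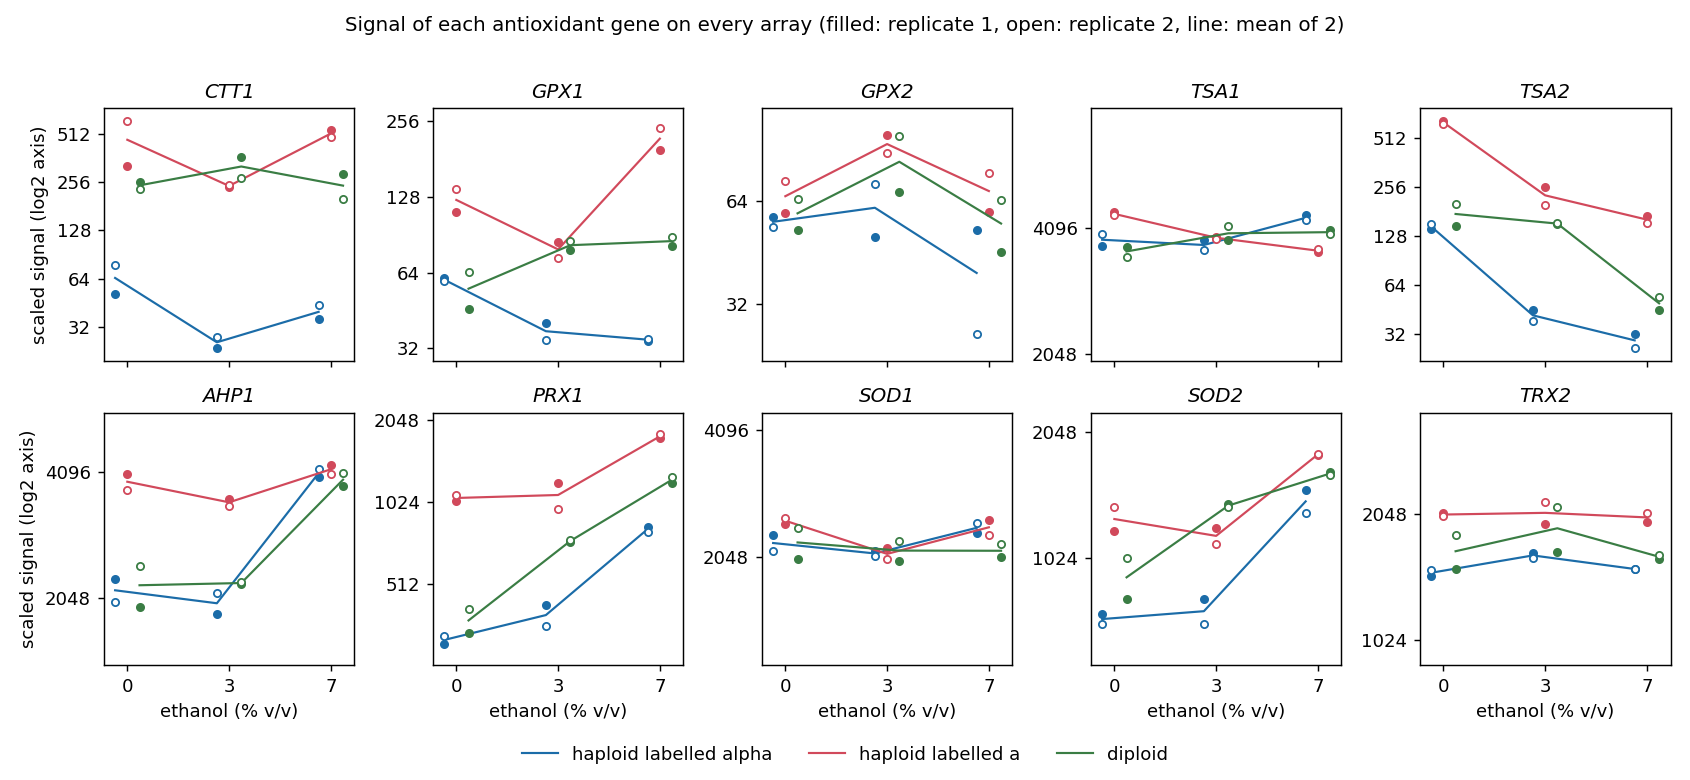
Scaled signal (log2 axis) of each of the 10 genes on all 18 arrays against ethanol (% v/v), with the strains in 3 colours, filled and open points for the 2 arrays of a group and lines through their means. TSA2 falls with ethanol in every strain, PRX1, SOD2 and AHP1 have their highest mean at 7% in every strain, and CTT1 is set apart mainly by the low haploid labelled alpha.

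CTT1, the cytosolic catalase, differed between the strains far more than between ethanol levels. The haploid labelled alpha read 51.6 and 77.7 without ethanol, 23.6 and 27.7 at 3%, and 35.7 and 43.7 at 7%. The haploid labelled a read 325 and 616, then 240.3 and 245, then 538.5 and 491, and the diploid read 255.5 and 234, then 368 and 273, then 286 and 201. Every array of the haploid labelled alpha lay below every array of the other strains. Strain accounted for 89.9% of the sum of squares of CTT1 over the 18 arrays and ethanol level for 2.5%. At 3% ethanol CTT1 fell in both haploids, by 0.94 (SE 0.21, adjusted p = 0.00293) in the one labelled alpha and by 0.85 (SE 0.21, adjusted p = 0.0036) in the one labelled a. Each of these calls rests on the brighter array without ethanol: without it the change was -0.70 (adjusted p = 0.064) and -0.40 (adjusted p = 0.139). The diploid changed by 0.36 at 3%, with a 95% interval of -0.09 to 0.80 (adjusted p = 0.266). At 7% no strain passed the threshold for CTT1, with differences of -0.52 (adjusted p = 0.0531) in the haploid labelled alpha, 0.19 in the haploid labelled a and -0.02 in the diploid. The haploid labelled alpha was called lower in 7 of 18 single-array omissions (-0.75, adjusted p = 0.0212, without its array 1 at 0%), without scaling, under quantile normalization, median centring and a pseudocount of 1. The haploid labelled a was called higher without its array 2 at 0% (0.64, adjusted p = 0.0123), the array on which its 3% call also rested.

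GPX1 and GPX2 encode glutathione peroxidase homologues, of which GPX1 is known to respond to carbon and nitrogen starvation and GPX2 to oxidants and calcium. GPX1 read 60.8 and 59.5 without ethanol, 40.2 and 34.7 at 3% and 34.4 and 35.0 at 7% in the haploid labelled alpha. It read 112 and 137, 85.1 and 73.5, and 197 and 240.4 in the haploid labelled a, and 46.0 and 64.7, 78.8 and 86.0, and 82.1 and 89.0 in the diploid. The 3 strains therefore ordered the ethanol levels differently: no ethanol was highest in the first, 7% in the second, and 3% and 7% lay above no ethanol with overlapping arrays in the third. At 7% GPX1 fell by 0.59 (SE 0.14, adjusted p = 0.00142) in the haploid labelled alpha, rose by 0.74 (SE 0.14, adjusted p = 9.69e-05) in the haploid labelled a and rose by 0.52 (SE 0.14, adjusted p = 0.00282) in the diploid. The diploid call ended without its first array at 0% (0.33, adjusted p = 0.0829), under quantile normalization (0.24, adjusted p = 0.158) and without scaling (0.38, adjusted p = 0.0648).

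GPX2 ranged from 26.2 to 99.97 over all arrays, and 31.1% of its sum of squares lay between the 2 arrays of a group. It read 57.6 and 54.0, 50.5 and 72.1, and 52.7 and 26.2 at 0%, 3% and 7% in the haploid labelled alpha. The haploid labelled a read 59.3 and 73.3, then 99.97 and 88.5, then 59.5 and 77.8, and the diploid read 52.9 and 65.2, then 68.0 and 99.3, then 45.4 and 64.8. In the order of its 9 group means every neighbouring pair of groups overlapped. GPX2 passed the threshold within no strain at 3% or 7% against 0%, but at 7% the haploid labelled alpha was called lower without its array 1 at 7% (-0.77, adjusted p = 0.00881) and without scaling (-0.49, adjusted p = 0.0169), and the haploid labelled a under quantile normalization (-0.52, adjusted p = 0.0455).

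TSA1 is the main cytosolic peroxiredoxin of yeast and TSA2 its close, normally weakly expressed paralogue. TSA1 varied by a factor of 1.23 between its lowest and highest group. It read 3704 and 3965, 3833 and 3618, and 4387 and 4262 in the haploid labelled alpha. It read 4455 and 4383, 3894 and 3858, and 3583 and 3636 in the haploid labelled a, and 3694 and 3495, 3818 and 4126, and 4042 and 3952 in the diploid. Its level without ethanol was the highest of its strain in the haploid labelled a and the lowest in the diploid. The interaction of strain and ethanol took 84.1% of its sum of squares and the strain and ethanol means took 3.1% and 2.7%. At 7% TSA1 fell by 0.29 (SE 0.06, adjusted p = 0.000275) in the haploid labelled a. The rises of 0.17 (adjusted p = 0.0212) in the haploid labelled alpha and 0.15 (adjusted p = 0.0342) in the diploid were both lost without scaling, under quantile normalization, median centring and a fit without the intensity trend, and the diploid value turned to -0.05 under median centring and to -0.02 without scaling. The first also ended without array 1 at 0% (0.12, adjusted p = 0.183) or at 7% (0.15, adjusted p = 0.118) of that strain, and the second without array 2 at 0% (0.11, adjusted p = 0.209) or either array at 7% of the diploid (0.14, adjusted p = 0.149, and 0.17, adjusted p = 0.0733).

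TSA2 fell with ethanol in every strain and had the largest ethanol change of the 10 genes in the mean of the strains. It read 140.4 and 151, 44.5 and 38.4, and 32.0 and 26.2 in the haploid labelled alpha. It read 645 and 624, 254 and 198, and 168 and 153 in the haploid labelled a, and 147 and 200.4, 150.9 and 152.5, and 44.6 and 53.7 in the diploid. Within each haploid both arrays at 3% lay below both without ethanol, while in the diploid the arrays at 3% lay within the range of those without ethanol. At 7% it fell by 1.84 (SE 0.14, adjusted p = 5.71e-10) in the haploid labelled alpha, by 1.88 (adjusted p = 3.98e-10) in the haploid labelled a and by 1.53 (adjusted p = 7.8e-09) in the diploid. At 3% it fell by 1.49 (adjusted p = 8.33e-08) and 1.43 (adjusted p = 1.88e-07) in the haploids, and the diploid value was -0.16 (95% interval -0.45 to 0.12, adjusted p = 0.438).

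AHP1 encodes a thiol peroxidase that prefers organic hydroperoxides. In the haploid labelled alpha it read 2270 and 2004 without ethanol, 1881 and 2100 at 3% and 3973 and 4163 at 7%. In the diploid it read 1953 and 2441, 2212 and 2236, and 3784 and 4065, and in the haploid labelled a 4053 and 3707, 3528 and 3402, and 4262 and 4046. The haploid labelled a without ethanol was thus already about as bright as the other strains at 7%. At 7% AHP1 rose by 0.93 (SE 0.09, adjusted p = 3.1e-08) in the haploid labelled alpha and by 0.84 (adjusted p = 9.02e-08) in the diploid, and differed by 0.10 (95% interval -0.09 to 0.28, adjusted p = 0.343) in the haploid labelled a. No strain passed the threshold at 3%, except the haploid labelled a under median centring (-0.34, adjusted p = 0.0216).

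PRX1, the mitochondrial peroxiredoxin, was higher at 7% than at 0% in every strain. The haploid labelled alpha read 308 and 327, 427 and 357, and 828 and 795 at the 3 levels. The haploid labelled a read 1026 and 1086, 1202 and 964, and 1750 and 1807, and the diploid 337 and 413, 730.2 and 738, and 1201 and 1265. The arrays at 7% lay above all arrays at 0% and 3% within each strain. At 7% PRX1 rose by 1.31 (SE 0.11, adjusted p = 2.33e-09) in the haploid labelled alpha, by 0.74 (adjusted p = 4.73e-06) in the haploid labelled a and by 1.68 (adjusted p = 4.2e-11) in the diploid. At 3% it rose in the diploid by 0.95 (adjusted p = 2.48e-06), and the values of 0.29 (adjusted p = 0.0531) and 0.03 (adjusted p = 0.853) in the haploids did not pass. The first was called in 5 of 18 single-array omissions (0.41, adjusted p = 0.0291, without array 2 of that strain at 3%), under quantile normalization (0.31, adjusted p = 0.0291) and under median centring (0.30, adjusted p = 0.0435).

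SOD1, the copper and zinc superoxide dismutase of the cytosol, and SOD2, the manganese enzyme of the mitochondrial matrix, behaved differently. SOD1 stayed between 2003 and 2537 on all 18 arrays. It read 2299 and 2114, 2107 and 2059, and 2330 and 2466 in the haploid labelled alpha, 2450 and 2537, 2141 and 2016, and 2510 and 2300 in the haploid labelled a, and 2023 and 2402, 2003 and 2229, and 2039 and 2190 in the diploid. Every neighbouring pair of its 9 groups overlapped. At 7% its differences were 0.12, -0.05 and -0.06 in these strains, none past the threshold, and the widest 95% interval reached 0.29. Under median centring the haploid labelled a (-0.39, adjusted p = 0.0023) and the diploid (-0.26, adjusted p = 0.0328) were called lower. At 3% it fell by 0.26 (adjusted p = 0.0144) in the haploid labelled a, a call lost without scaling, under quantile normalization, and without the second array of that strain at 0% (-0.24, adjusted p = 0.0787) or at 3% (-0.22, adjusted p = 0.105).

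SOD2 read 753 and 710.0, 817 and 710.4, and 1484 and 1308 in the haploid labelled alpha. It read 1184 and 1351, 1208 and 1102, and 1800 and 1814 in the haploid labelled a, and 818 and 1022, 1376 and 1353, and 1639 and 1615 in the diploid. Both arrays at 7% lay above all others of their strain, and in the diploid both arrays at 3% also lay above both without ethanol. At 7% SOD2 rose by 0.92 (SE 0.10, adjusted p = 1.73e-07) in the haploid labelled alpha, by 0.51 (adjusted p = 0.000156) in the haploid labelled a and by 0.82 (adjusted p = 5.44e-07) in the diploid. The call in the haploid labelled a was lost under median centring (0.17, adjusted p = 0.135). At 3% SOD2 rose in the diploid by 0.57 (adjusted p = 0.000406), and the haploids differed by 0.06 and -0.13 without passing, the second called lower under median centring (-0.31, adjusted p = 0.0157).

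TRX2, a cytosolic thioredoxin that reduces peroxiredoxins and a known target of Yap1, did not pass the threshold at 3% or 7% against 0% in any strain. It read 1455 and 1506, 1649 and 1607, and 1509 and 1514 in the haploid labelled alpha, 2051 and 2025, 1935 and 2180, and 1960 and 2051 in the haploid labelled a, and 1511 and 1820, 1658 and 2123, and 1598 and 1634 in the diploid. Strain took 71.7% of its sum of squares. At 7% the differences were 0.03, -0.02 and -0.04, with 95% intervals that together ran from -0.24 to 0.23. The haploid labelled a was called lower at 7% under median centring (-0.36, adjusted p = 0.00807), and the diploid higher at 3% without its array 1 at 3% (0.35, adjusted p = 0.0257).

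**Figure D2:**
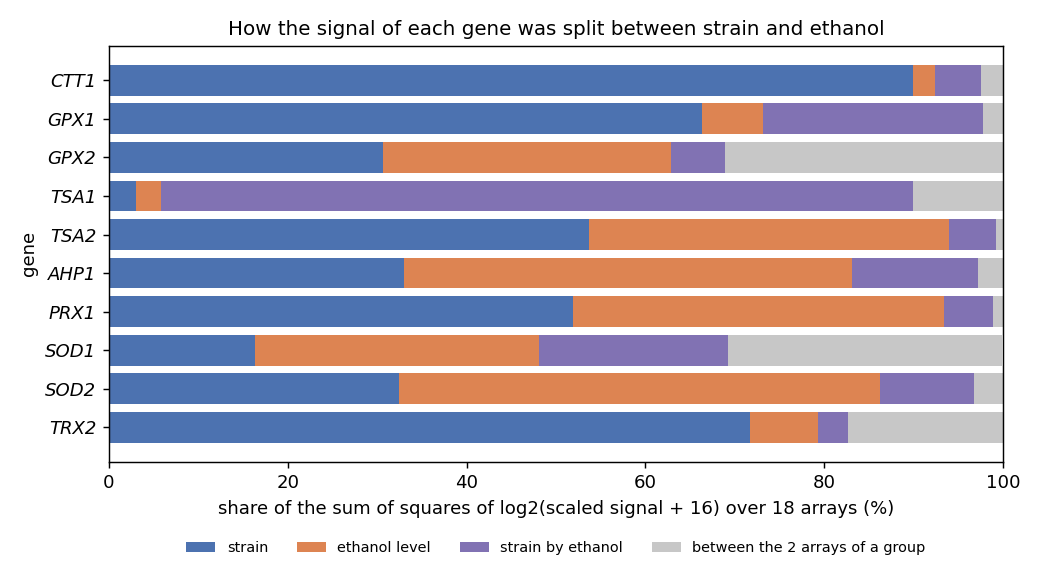
Share of the sum of squares of log2(scaled signal + 16) over the 18 arrays (%) taken by strain, ethanol level, their interaction and the difference of replicate arrays, 1 bar per gene. Strain takes the largest share in CTT1 (89.9%), TRX2, GPX1, TSA2 (53.7%, ethanol 40.2%) and PRX1 (51.9%, ethanol 41.5%). Ethanol takes it in SOD2 (53.8%), AHP1 (50.1%), GPX2 (32.2%) and SOD1 (31.8%), in the last 2 with nearly as much between replicate arrays (31.1% and 30.7%). TSA1 varies almost only through the interaction (84.1%).

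The ethanol change was also averaged over the strains, although GPX1 and TSA1 did not move in the same direction in all of them. At 7% against 0%, PRX1 rose 2.37-fold (log2 1.25, SE 0.06, adjusted p = 2.13e-13), SOD2 1.68-fold (0.75, SE 0.06, adjusted p = 2.7e-10) and AHP1 1.54-fold (0.62, SE 0.05, adjusted p = 9.21e-10), while TSA2 fell by 1.75 (3.37-fold, SE 0.08, adjusted p = 5.02e-14). TSA1, SOD1, TRX2 and CTT1 did not pass, with differences of 0.01, 0.00, -0.01 and -0.12. CTT1 was called lower without array 1 of the haploid labelled a at 0% (-0.27, adjusted p = 0.0287), and GPX2 (-0.15, adjusted p = 0.253) without array 1 of the haploid labelled alpha at 7% (-0.27, adjusted p = 0.0356), without scaling (-0.24, adjusted p = 0.032) and under quantile normalization (-0.46, adjusted p = 0.00247). SOD1 was called higher under quantile normalization (0.13, adjusted p = 0.0157), and TSA1 without the haploid labelled a (0.16, adjusted p = 0.00344). Together 4 of the 10 genes were called higher and 1 lower, beside 70.6% of all genes tested called in either direction (48.3% higher and 22.3% lower), so that 5 of 10 is no more than the background. The median difference of the 10 genes was 0.01 and that of all genes 0.13. The fourth gene called higher, GPX1, had 0.22 (adjusted p = 0.0157) and depended on the haploid labelled a: without that strain it was -0.03 and under quantile normalization -0.01, and the call also ended without array 1 of that strain at 0% (0.18, adjusted p = 0.061), its array 2 at 7% (0.18, adjusted p = 0.065) or array 1 of the diploid at 0% (0.16, adjusted p = 0.0752). Under median centring, which lowered the median of all genes from 0.13 to -0.07, TSA1, SOD1, TRX2, CTT1 and GPX2 were called lower (-0.19, -0.20, -0.21, -0.32 and -0.36) and 9 of the 10 genes were called. PRX1, SOD2, AHP1 and TSA2 kept direction and call under every alternative that was run.

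At 3% against 0%, TSA2 again fell (by 1.03, 2.04-fold, SE 0.08, adjusted p = 2.62e-09) and PRX1 rose (0.42, 1.34-fold, SE 0.06, adjusted p = 1.4e-05). CTT1 fell by 0.48 (SE 0.12, adjusted p = 0.00354). In all, 3 of the 10 genes were called higher and 4 lower, beside 49.3% of all genes in either direction (32% higher and 17.3% lower). Without the diploid PRX1 had 0.16 (adjusted p = 0.0952) and SOD2, called at 0.17 (adjusted p = 0.0211), had -0.04, and without either haploid the CTT1 fall did not pass (-0.24, adjusted p = 0.184, and -0.29, adjusted p = 0.0836). The small calls of SOD1 (-0.13), SOD2, GPX1 (-0.20) and GPX2 (0.30) also ended when single arrays were left out, in 6, 5, 12 and 7 of the 18 omissions, with adjusted p-values up to 0.1, 0.0906, 0.167 and 0.138. Single omissions also gave calls for TRX2 (0.11, adjusted p = 0.115), higher without array 2 at 0% (0.15, adjusted p = 0.0297) or array 1 at 3% of the diploid (0.17, adjusted p = 0.0119), and for AHP1, lower without array 1 of the diploid at 0% (-0.13, adjusted p = 0.0251).

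In the mean of the strains the larger part of the rise of PRX1, SOD2 and AHP1 lay between 3% and 7%. In the diploid the first step had the larger value for PRX1 (0.95, then 0.74) and SOD2 (0.57, then 0.25), but the steps were not compared by a test within that strain. From 3% to 7%, 6 of the 10 genes were called higher and 2 lower, beside 56.3% of all genes. AHP1 differed by -0.08 (adjusted p = 0.21) from 0% to 3% and rose by 0.70 (adjusted p = 3.25e-10) from 3% to 7%. The steps were compared directly in a contrast added after the data had been seen, the second step minus the first, which called 6 genes higher and 1 lower beside 29.3% of all genes. The second step was larger for AHP1 by 0.78 (adjusted p = 1.08e-06), for SOD2 by 0.42 (adjusted p = 0.00316) and for PRX1 by 0.40 (adjusted p = 0.00664), both of the latter lost without scaling (adjusted p = 0.104 and 0.166). It was also more positive for CTT1 (0.83, adjusted p = 0.00582), GPX1 (0.62, adjusted p = 0.00178) and SOD1 (0.27, adjusted p = 0.0171), and more negative for GPX2 (-0.76, adjusted p = 0.00789), which were changes of sign between the steps. The SOD1 value ended without array 2 of the haploid labelled a at 3% (0.24, adjusted p = 0.0569) or array 1 of the diploid at 3% (0.22, adjusted p = 0.08). Single omissions gave calls for TSA2 (0.42, adjusted p = 0.0335, without array 1 of the haploid labelled a at 3%) and TRX2 (-0.34, adjusted p = 0.00816, without array 1 of the diploid at 3%).

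**Figure D3:**
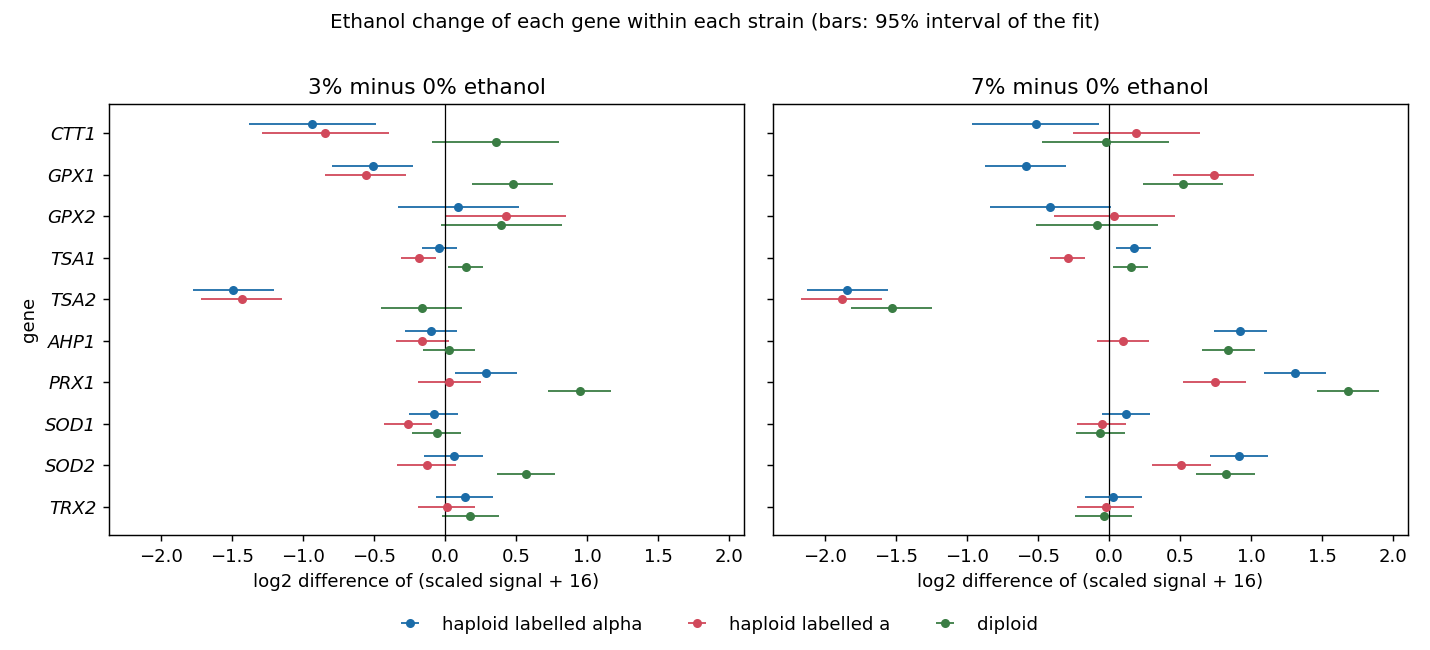
Log2 difference of (scaled signal + 16) from 0% to 3% (left) and from 0% to 7% ethanol (right) for each gene within each strain, with the 95% interval of the fit as bars. At 3% the diploid lies to the right of both haploids for every gene but GPX2. Its change was called different from the mean change of the haploids for CTT1, GPX1, TSA1, TSA2, PRX1 and SOD2. At 7% the strains lie together for TSA2, SOD1 and TRX2 and apart for GPX1 and AHP1.

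The strains were also taken 1 at a time. At 3% no gene was called higher and 3 lower in the haploid labelled alpha (25.2% of all genes called, 12.6% lower), none higher and 5 lower in the haploid labelled a (43.5%, 12% lower), and 3 higher and none lower in the diploid (20.4%, 12.4% higher). The genes called lower were CTT1, TSA2 and GPX1 in both haploids, with TSA1 and SOD1 added in the one labelled a, and those called higher in the diploid were PRX1, SOD2 and GPX1. The GPX1 calls each ended without single arrays: array 2 at 3% of the haploid labelled alpha (-0.44, adjusted p = 0.0845), array 2 at 0% of the haploid labelled a (-0.43, adjusted p = 0.0515), and array 1 at 0% (0.29, adjusted p = 0.257) or array 2 at 3% (0.42, adjusted p = 0.123) of the diploid. The TSA1 call in the haploid labelled a ended without its array 1 at 0% or either array at 3% (adjusted p up to 0.0703). At 7% the counts were 4 higher and 2 lower (46.9%), 3 higher and 2 lower (63.5%), and 5 higher and 1 lower (56.4%) in the same order. PRX1 and SOD2 were called higher and TSA2 lower in all 3 strains.

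The strains' responses to 3% were then compared directly, as the change of the diploid minus the mean change of the haploids. It was more positive in the diploid for CTT1 (1.25, SE 0.26, adjusted p = 0.00404), TSA2 (1.30, SE 0.17, adjusted p = 3.45e-05), GPX1 (1.01, SE 0.17, adjusted p = 0.000482), PRX1 (0.79, SE 0.13, adjusted p = 0.000453), SOD2 (0.61, SE 0.12, adjusted p = 0.00256) and TSA1 (0.26, SE 0.07, adjusted p = 0.0306). These 6 of 10 genes stand beside 8.97% of all genes called in either direction and 4.01% called higher, and no member was called lower. The median of the 10 genes was 0.43 and that of all genes -0.02. In the diploid the TSA2 fall seen in the haploids was not detected at 3%, and PRX1 and SOD2 had risen there. All but TSA1 kept the call under every alternative, single-array omissions included; TSA1 lost it without scaling (adjusted p = 0.476), under quantile normalization (adjusted p = 0.0501), without the intensity trend (adjusted p = 0.12) and in 5 of 18 omissions. The neighbouring pathway lists had 4 genes called in this contrast, all higher: the glutaredoxin GRX1 (0.31), the copper transporter CTR3 (0.63), and OYE3 and HBN1 (0.50 each), out of 59 genes. These 4 were singled out after their values were seen. The haploids take part in this contrast with opposite sign at 0%, where the haploid labelled a was high for several members, so its values share those arrays with the comparisons of strains at 0%.

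At 7% the same contrast called PRX1 alone (0.66, SE 0.13, adjusted p = 0.0031), beside 9.21% of all genes, and the call ended without scaling (0.57, adjusted p = 0.0916). AHP1 (0.33, adjusted p = 0.0637) was called without array 2 of the haploid labelled alpha at 0% (0.37, adjusted p = 0.039), without array 2 of the diploid at 0% (0.49, adjusted p = 0.00722), under quantile normalization (0.36, adjusted p = 0.0254) and with the 18S covariate (0.34, adjusted p = 0.0484). GPX1 (0.45, adjusted p = 0.1) was called without array 2 of the diploid at 0% (0.64, adjusted p = 0.0303). The 95% interval at 7% for TSA2 was -0.02 to 0.68 and for CTT1 -0.41 to 0.69. Whether the differences at 3% and 7%, which share the arrays at 0%, were unequal was not tested.

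The haploids were compared with each other, the one labelled a minus the one labelled alpha. At 3% their changes did not differ past the threshold for any of the 10 genes, beside 18.9% of all genes, and 0 of them had an unadjusted p under 0.05. Under median centring TSA1 (-0.34, adjusted p = 0.0401) and PRX1 (-0.45, adjusted p = 0.0451) were called. At 7% the changes differed for 5 genes, beside 37.9% of all genes. GPX1 was more positive in the haploid labelled a (1.32, SE 0.19, adjusted p = 5.02e-05). AHP1 (-0.83, SE 0.13, adjusted p = 7.54e-05), PRX1 (-0.57, SE 0.15, adjusted p = 0.00628), TSA1 (-0.46, SE 0.08, adjusted p = 0.000391) and SOD2 (-0.41, SE 0.14, adjusted p = 0.0277) were more negative there. Without ethanol 8 of the 10 members were called higher in that strain, these 5 genes among them, beside 845 of 5363 genes. The arrays at 0% enter both comparisons. For the change to 7%, the PRX1 call ended without scaling (-0.48, adjusted p = 0.0963) and under quantile normalization (-0.40, adjusted p = 0.0538). The SOD2 call ended without scaling, under quantile normalization (-0.20, adjusted p = 0.309), without the intensity trend and in 5 of 18 single-array omissions. CTT1 had 0.71 (adjusted p = 0.0706) and was called more positive in the haploid labelled a without its array 2 at 0% (1.15, adjusted p = 0.00333), without array 1 of the haploid labelled alpha at 0% (0.94, adjusted p = 0.0304), without scaling (0.76, adjusted p = 0.0151) and with a pseudocount of 1 (0.87, adjusted p = 0.0464). GPX2 was called without array 1 of the haploid labelled alpha at 7% (0.80, adjusted p = 0.0341), SOD1 under median centring (-0.45, adjusted p = 0.0214) and TSA2 with a pseudocount of 64 (-0.47, adjusted p = 0.0179).

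Averaged over the ethanol levels, 8 of the 10 genes were higher in the haploid labelled a than in the haploid labelled alpha and none lower, beside 62.1% of all genes called in either direction and 27.8% called higher. CTT1 was 7.02-fold higher (2.81, SE 0.12, adjusted p = 9.13e-14), TSA2 4.04-fold (2.02, SE 0.08, adjusted p = 1.35e-14), PRX1 2.66-fold (1.41, SE 0.06, adjusted p = 7.43e-14) and GPX1 2.47-fold (1.31, SE 0.08, adjusted p = 1.55e-11). SOD2 (0.58), AHP1 (0.56), GPX2 (0.45) and TRX2 (0.40) were higher by smaller amounts, with adjusted p-values from 9.94e-09 to 0.00249. TSA1 (0.00) and SOD1 (0.06, 95% interval -0.04 to 0.16) did not pass, but both were called higher without scaling (0.16, adjusted p = 0.021, and 0.21, adjusted p = 0.00633) and under quantile normalization (0.10, adjusted p = 0.0312, and 0.12, adjusted p = 0.0274). The median of the 10 genes was 0.57 and that of all genes -0.04. Leaving out single arrays left the count at 8, and no alternative ended any of these 8 calls.

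**Figure D4:**
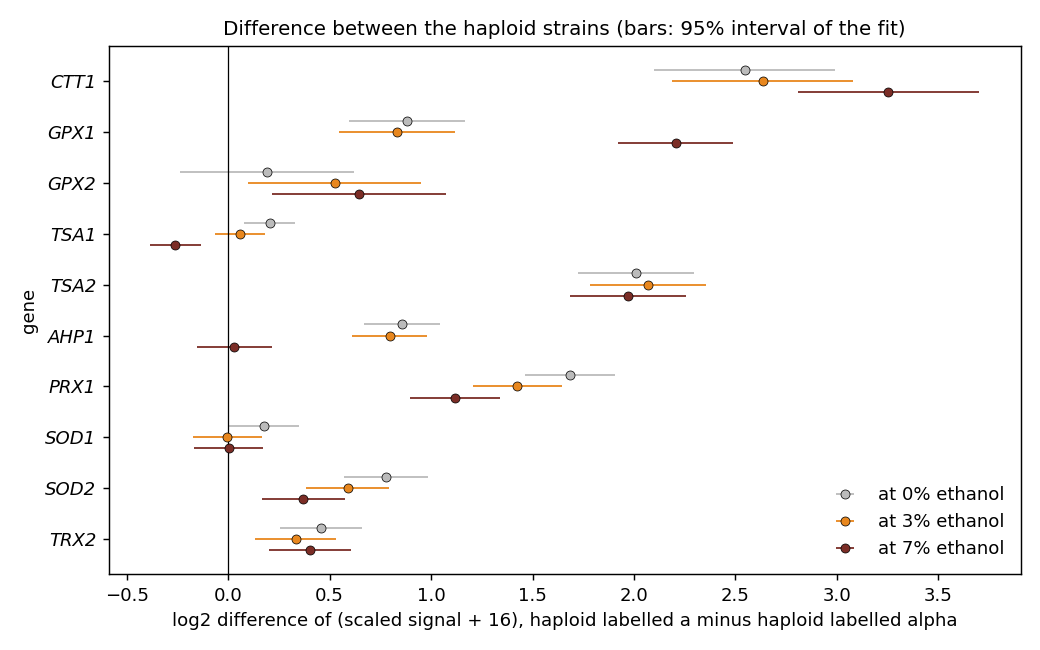
Log2 difference of (scaled signal + 16), haploid labelled a minus haploid labelled alpha, at 0%, 3% and 7% ethanol, with 95% intervals of the fit. CTT1 and TSA2 differ by about the same amount or more at every level, the AHP1 difference is 0.03 at 7%, and the GPX1 difference is largest at 7% (2.20).

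By ethanol level the difference between the haploids changed for some genes. For TSA2 it was 2.01, 2.07 and 1.97 at 0%, 3% and 7%, and for CTT1 2.54, 2.64 and 3.25. For AHP1 it was 0.86, 0.80 and 0.03, the last not past the threshold (adjusted p = 0.811). For TSA1 it was 0.20 (adjusted p = 0.00729), 0.06 and -0.26 (adjusted p = 0.0014); the first ended without array 1 of the haploid labelled alpha at 0% (0.16, adjusted p = 0.0877), and the last was lost without scaling and under quantile normalization.

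The diploid was compared with the mean of the haploids. Without ethanol, 5 of the 10 genes were lower in the diploid and none higher, beside 18% of all genes called and 10.6% called lower: TSA2 (-0.79, adjusted p = 6.61e-05), PRX1 (-0.62, adjusted p = 5.42e-05), GPX1 (-0.55, adjusted p = 0.00274), AHP1 (-0.40, adjusted p = 0.00104) and TSA1 (-0.19, adjusted p = 0.0117). CTT1 had 0.44 (adjusted p = 0.113) and was called higher in the diploid without array 2 of the haploid labelled a at 0% (0.66, adjusted p = 0.00664), without scaling (0.49, adjusted p = 0.0255) and under quantile normalization (0.52, adjusted p = 0.0415). The mean of the haploids lies between 2 strains that differ widely for these genes, so each haploid was also taken alone, in contrasts added after the data had been seen. Against the haploid labelled alpha, CTT1 was 3.27-fold higher in the diploid (1.71, SE 0.21, adjusted p = 5.92e-06) and SOD2 1.25-fold higher (0.32, adjusted p = 0.0232), and no gene was lower, beside 26.3% of all genes called and 7.74% called higher. Against the haploid labelled a, 8 genes were lower in the diploid, led by TSA2 (-1.79), PRX1 (-1.46), GPX1 (-0.99) and CTT1 (-0.83), beside 32.4% of all genes called and 14.3% called lower. Single arrays ended the AHP1 and GPX1 calls against the mean (array 1 of the diploid at 0%, -0.24 and -0.36, adjusted p = 0.08 and 0.121), the TSA1 call (array 2 of the diploid, -0.16, adjusted p = 0.144), the SOD2 call (array 2 of the haploid labelled alpha, 0.28, adjusted p = 0.144, or of the diploid, 0.16, adjusted p = 0.334) and the CTT1 call against the haploid labelled a (its array 2, -0.39, adjusted p = 0.182). PRX1 was called higher in the diploid than in the haploid labelled alpha without array 1 of the diploid (0.36, adjusted p = 0.0374) and under median centring (0.34, adjusted p = 0.0238). Averaged over ethanol levels the diploid had 2 genes called higher, CTT1 (0.90) and SOD2 (0.17), and 3 lower, TSA2 (-0.24), AHP1 (-0.23) and PRX1 (-0.14), beside 40.3% of all genes. The PRX1 call ended in 13 of 18 single-array omissions (adjusted p up to 0.188), the SOD2 call without array 2 of the diploid at 0% (0.11, adjusted p = 0.0717) and the TSA2 call under quantile normalization (-0.14, adjusted p = 0.123). SOD1 was called lower without array 2 of the diploid at 0% (-0.12, adjusted p = 0.0226) and under quantile normalization (-0.13, adjusted p = 0.00898).

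The genes that supply or regulate these enzymes were described from 6 lists with 59 genes, all tested, first as the average change of the strains to 7% ethanol. An average can hide a strain that moved otherwise, and calls in these lists were not compared under the alternatives. Of 15 thioredoxin, glutaredoxin and glutathione genes 7 were called higher and 5 lower. The monothiol glutaredoxin GRX3 (1.15) and the glutaredoxin GRX8 (0.81) rose together with the mitochondrial thioredoxin TRX3 (0.68), while the mitochondrial glutaredoxin GRX5 (-0.66), the cytosolic and mitochondrial thioredoxin reductases TRR1 (-0.49) and TRR2 (-0.25), the glutathione synthetase GSH2 (-0.19) and the glutathione reductase GLR1 (-0.12) fell. The GLR1 mean of the diploid (1211 at 0%, 1217 at 7%) was not lower at 7%. At 3% 4 genes of this list were higher and 4 lower, led by GRX8 (0.80) and GRX1 (0.30). Of 7 other peroxidases and repair enzymes, the glutathione peroxidase homologue HYR1 (0.44), which is the peroxide sensor of Yap1, rose. The methionine sulfoxide reductase MXR1 (-0.87), the sulfiredoxin SRX1 (-0.37), which repairs overoxidised peroxiredoxins, the nuclear peroxiredoxin DOT5 (-0.14) and the cytochrome c peroxidase CCP1 (-0.13) fell. From 0% to 7% DOT5 was near level in the haploid labelled a (336.5, then 330.6) and in the diploid (262.6, then 261.0). The CCP1 mean of the haploid labelled alpha (1043, then 1068) was not lower at 7%. At 3% HYR1 (0.19) rose and CCP1 (-0.35) and MXR1 (-0.28) fell.

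Of 7 genes for the metal supply of the superoxide dismutases 6 were called higher and none lower at 7%. They included the copper chaperones ATX1 (1.58) and CCS1 (0.48), of which the second loads SOD1, the copper transporter CTR1 (0.65) and the copper-sensing activator MAC1 (0.42). At 3% 4 of them were higher, among them ATX1 (0.68) and CCS1 (0.27). SOD1 itself did not pass at 7%. Of 11 NADPH supply genes 4 were higher and 5 lower. The falls were of ZWF1 (-0.76), which makes the first enzyme of the pentose phosphate pathway, the mitochondrial NADH kinase POS5 (-0.65), SOL3 (-0.46), GND1 (-0.17) and TKL1 (-0.13). GND2 (0.36), IDP2 (0.40), UTR1 (0.26) and TAL1 (0.11) were called higher, TAL1 by less than the median of all genes (0.13). GND2 read 99.1 at 0% and 99.3 at 7% in the haploid labelled a, and UTR1 247 and 228 in the diploid. Both were higher at 7% in the other strains. In the haploid labelled alpha GND1 (3562, then 3579) and TKL1 (3103, then 3170) were not lower at 7%. TAL1 was near level in the haploid labelled a (3614, then 3628). IDP2 was dim, with a highest group mean of 29.9. At 3% ZWF1 (-0.47) and SOL3 (-0.31) fell and none of this list rose.

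Of 9 regulators 2 were higher and 5 lower at 7%. The Yap1 partner YBP1 (-0.45), the general stress factor MSN4 (-0.35) and YAP1 (-0.31) fell, with STB5 (-0.20) and HAP1 (-0.14), and HAA1 (0.30), which acts in weak acid stress, and SKN7 (0.25) rose. In the haploid labelled a the means of MSN4 (468.5, then 487) and STB5 (67.7, then 75.9) were not lower at 7% than at 0%. In the other strains both were lower. The HAP1 mean of the haploid labelled alpha (299.4, then 300.4) was not lower at 7% either. At 3% 4 fell, led by MSN4 (-0.63) and YAP1 (-0.45), and none rose. Of 10 other known Yap1 targets 8 were higher and 2 lower at 7%. OYE3, an old yellow enzyme (1.43), and the glutathione transferase GTT2 (1.35) rose, and the transporter ATR1 (-1.35) and the glutathione transferase GTT1 (-0.96) fell. At 3% 4 rose and 1 fell, with GTT2 at 0.48 and GTT1 at -0.58. Each of these counts stands beside 70.6% of all genes called at 7% and 49.3% at 3%, and the medians at 7% were 0.04, -0.13, 0.42, 0.06, -0.14 and 0.39 in the order of the lists, beside 0.13 for all genes.

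**Figure D5:**
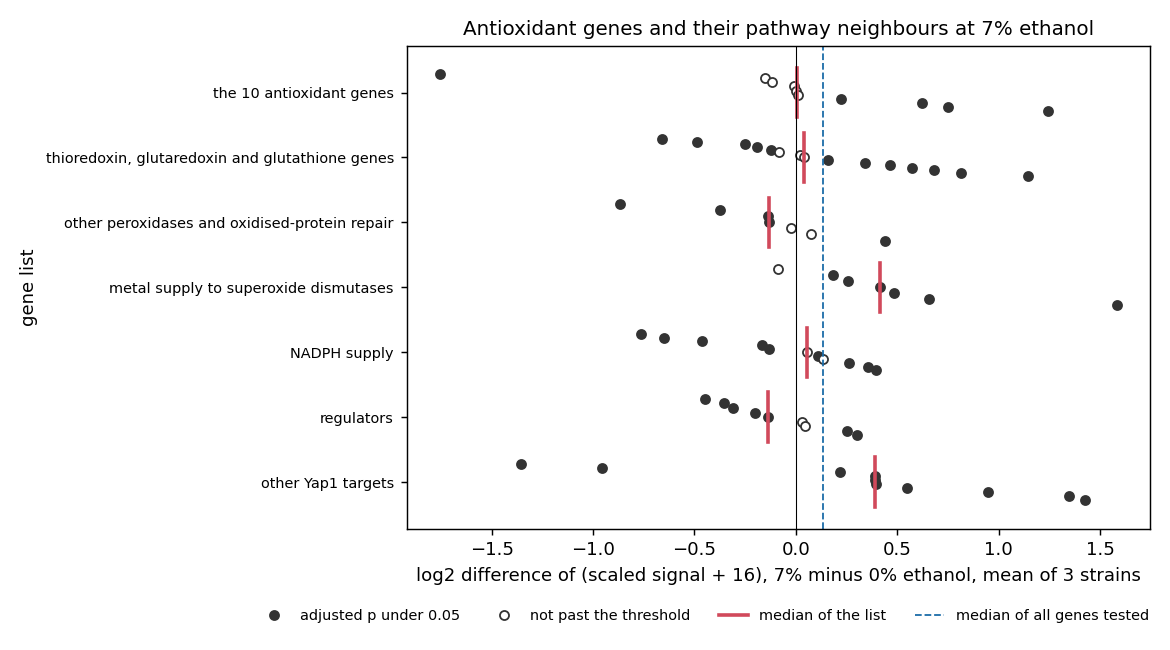
Log2 difference of (scaled signal + 16), 7% minus 0% ethanol in the mean of the 3 strains, for the 10 antioxidant genes and 6 lists of related genes, 1 point per gene, filled where the adjusted p is under 0.05, with each list's median in red and that of all genes tested dashed. The metal supply and other Yap1 target lists have medians of 0.42 and 0.39, and the antioxidant genes one of 0.01 with TSA2 (-1.75) farthest left.

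The related lists were also compared between the haploids, the one labelled a minus the one labelled alpha. In that contrast 5 of 15 thioredoxin, glutaredoxin and glutathione genes were higher and 2 lower, with GRX2 at 0.91 and TRR1 at 0.43. Of the other peroxidases and repair genes 6 of 7 were higher, with SRX1 at 0.56 and HYR1 at 0.23, and none lower. Only MSN4 (0.66) of the 9 regulators was called. Among other Yap1 targets 4 were higher, HBN1 most (2.25), and 4 lower, ATR1 most (-1.89). Of the metal genes 3 were higher and 1 lower, and of the NADPH genes 3 and 3. Background shares for this contrast are those given above, and GRX2 and HBN1 were singled out after their values were seen.

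The patterns of the 10 genes over the 9 group means were compared as a description, in which the groups share strains and arrays. PRX1 and SOD2 were most alike (Pearson r = 0.92 over 9 group means), followed by AHP1 and PRX1 (0.88) and by CTT1 and GPX1 (0.85), while the paralogues TSA1 and TSA2 had 0.11. Among all other genes tested, PRX1 was most like the proteinase inhibitor gene PBI2 (r = 0.99), SSE2 and COR1, and SOD2 most like HSP31 (0.98), DAK1 and PIC2. TSA2 was most like SDH1 (0.98), GLC3 and GTT1, CTT1 like STF2 (0.97), NAS2 and JID1, AHP1 like ATG22 (0.96), SPI1 and CIT1, and GPX1 like DOT6 (0.97), ATO2 and AIM18. TRX2 was closest to HEM15 (0.97), ICL2 and SDH6, SOD1 to IDH1 (0.93), ZRT3 and PPH22, and GPX2 to ATG31 (0.92), EEB1 and YLR036C. The closest gene to TSA1 was COF1, at a lower r of 0.80, followed by CCW14 and YML054C-A. When each strain's mean was subtracted first, SOD1 kept IDH1 (0.94) and SOD2 kept HSP31 (0.98) among their 3 closest genes, and the other 8 members had 3 other genes each.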

How the data were processed

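RNA of 18 samples was hybridised to 1 Affymetrix array each, and the authors deposited 1 linear intensity per probe set, made with GCOS per the submitters' processing notes. Version, settings and scaling target of GCOS were not given in any source used here. Each array was multiplied by 0.84 to 1.19 to equalise the trimmed mean (2% from each end) of the S. cerevisiae probe sets, which was 368.5 to 521.5 as deposited, and 16 was added before log2. Of 10928 probe sets 5498 read 1 S. cerevisiae gene, 1746 a gene of another yeast, 213 were controls and 3470 had no gene name. For background, the 95th percentile of the other yeast's probe sets served as each array's limit. A gene was tested when its brightest probe set exceeded this on at least 2 arrays, as 5363 of 5449 genes did. The number of arrays limits the precision.

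Group means were fitted to all arrays with limma 3.58.1 (R 4.3.3, eBayes with intensity trend, 9 residual degrees of freedom) and Benjamini-Hochberg adjustment over the 5363 genes, two-sided, in 20 contrasts, with 5 more added after the data were seen. The fit was tested on simulated data. Intervals are 95% intervals of the fit. All 10 genes are named in each comparison, and related genes by the smallest adjusted p at 7% (up to 4 per list) and 3% (up to 2), with those called against the majority of their list. Members, lists and tests were chosen with earlier results of these data known. Alternatives were the scaling, pseudocounts of 1 and 64, the filter, the probe set summary, the trend, a replicate block, the 18S control as a covariate, and leaving out arrays or strains.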

Additional observations from a re-analysis of the deposited data

Results flagged for a closer look

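A test of the difference itself found that the ethanol change was unequal between strains in 12 cases, all of them given above with their errors. From 0% to 3% ethanol the diploid's change minus the mean change of the haploids was 1.25 for CTT1, 0.26 for TSA1, 1.30 for TSA2, 0.79 for PRX1, 0.61 for SOD2 and 1.01 for GPX1 on the log2 scale. From 0% to 7% it was 0.66 for PRX1. From 0% to 7% the change of the haploid labelled a minus that of the haploid labelled alpha was -0.46 for TSA1, -0.83 for AHP1, -0.57 for PRX1, -0.41 for SOD2 and 1.32 for GPX1. Of all genes, 8.97% (3%) and 9.21% (7%) were called for the diploid against the haploids. Between the haploids the shares were 18.9% at 3%, where no member was called, and 37.9% at 7%. As given above, both PRX1 calls at 7%, the SOD2 call between the haploids and the TSA1 call at 3% ended under other settings. Groups of 2 arrays are too small for a check of single arrays that stand apart.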

How the results depend on the processing

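Of the values with 1 array left out 4252 kept their side of the threshold and direction or moved by less than the spread between arrays, 113 lost and 58 gained a call and 77 moved more; with a strain left out 67, 13, 3 and 4, with 3 reversed; under other settings 2273, 76, 62 and 83, with 6 reversed. A sign change of a value called in neither fit was judged by its size only. Where an omission left 1 array in a group, it was assumed to vary like the other groups. Reversed values were SOD2 at 3% in the mean of strains without the diploid (-0.0362); GPX1 at 7% against 0% under quantile normalization (-0.0098) and without the haploid labelled a (-0.0326), and against 3% without that strain (-0.015); TSA1 and SOD1 at 7% under median centring (-0.19 and -0.20); GPX2 at 7% in the haploid labelled a under quantile normalization (-0.52); and TSA1 at 7% in the diploid without scaling (-0.0226) and under median centring (-0.0468). The causes were not tested.

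Counts of called members moved by over 1.5 times as follows. Without scaling the mean of strains at 3% had 4 in place of 7, the haploid labelled a at 3% 3 in place of 5, the diploid's difference from the haploids in the change to 7% 0 in place of 1, and the difference of the steps 4 in place of 7. Under quantile normalization the haploid labelled a at 3% had 3 in place of 5, the diploid's difference to 7% 2 in place of 1, the haploids' difference in the change to 7% 3 in place of 5, and the diploid against the haploid labelled alpha at 0% 1 in place of 2. Under median centring the mean of strains at 7% had 9 in place of 5, the haploids' difference in the change to 3% 2 in place of 0, and the haploids at 7% 5 in place of 8. In that last comparison 1537 of 5363 genes were called higher and 923 lower as scaled, and 1084 and 1516 under median centring. With the 18S control as a covariate the diploid's difference to 7% had 2 in place of 1, and without the haploid labelled a the mean of strains at 3% had 3 in place of 7.

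With 1 array left out the counts ranged from 4 to 7 (mean of strains, 3% against 0%), 4 to 6 (7% against 0%) and 6 to 9 (7% against 3%). In the same order of levels they were 2 to 4, 6 to 7 and 3 to 6 in the haploid labelled alpha, 2 to 5, 5 to 6 and 4 to 7 in the haploid labelled a, and 2 to 4, 5 to 6 and 3 to 5 in the diploid. The diploid against the haploids had 4 to 5 over all levels, 3 to 6 at 0%, and 5 to 6 and 1 to 3 for the changes to 3% and 7%. The haploids against each other had 8 to 8 over all levels, 7 to 8 at 0%, 6 to 8 at 3%, 6 to 8 at 7%, and 0 to 0 and 4 to 6 for the changes. Of 5363 genes, 1025 were called higher and 943 lower between the haploids at 3% with all arrays. The difference of the steps had 6 to 8, and the diploid at 0% had 1 to 3 against the haploid labelled alpha and 6 to 9 against the haploid labelled a.

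The scaling also set the split of all genes at 7% against 0%: 2592 higher and 1196 lower as scaled, 1874 and 1844 under quantile normalization, 1623 and 2207 under median centring, and 1869 and 1369 without scaling. Over 36 pairs of groups the correlation of same-numbered deviations was -0.25 to 0.18 (median 0.05), and 11 pairs lay over 0.1. Whether replicate numbers paired the arrays of only some groups was not tested. A replicate block changed 1 call among the members, SOD2 at 7% against 3% in the diploid (0.25, adjusted p = 0.0509). Signal over background limited none of the 10 genes, the dimmest array value being 23.6 against a limit of at most 7.58.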
